A study of Homo sapiens with 6 samples.

Results

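The list described here holds 10 genes. Except for PHLDA1, whose transcript follows ERK activity, they encode proteins that switch off or dampen signalling through the kinase ERK. These are the phosphatases DUSP4, DUSP5, DUSP6 and DUSP7, the Sprouty proteins SPRY1, SPRY2 and SPRY4, and the Sprouty-related proteins SPRED1 and SPRED2. All 10 were taken as a named list. Each was read by its brightest probe with exactly 1 gene symbol in the platform annotation. They are 10 of the 18417 genes measured in this way. All 10 had 1 such probe. The arrays compared H441 cells given siRNA against ETS2 with H441 cells given a scrambled control siRNA, 3 arrays in each group. H441 is an established human lung adenocarcinoma line. Both groups were grown in DMEM/F12 medium, both were transfected with pooled siRNA by Lipofectamine RNAiMAX, and RNA was taken 48 h later. Per the labels the arrays stem from independent transfections, so the spread between arrays is that of transfections of a single line, and 1 ETS2 reagent was set against 1 control reagent.

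Receptor tyrosine kinases activate RAS, which activates RAF, MEK and ERK in turn. ERK then raises the transcription of its own inhibitors, among them genes of the DUSP, SPRY and SPRED families, which is why their transcripts are widely read as a gauge of ERK output. ETS2 is a transcription factor that ERK phosphorylates and activates. Levels are log2 values after RMA, a measure in which a difference of 1 is a doubling, and every difference is ETS2 siRNA minus control siRNA.

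Of the 10 genes, 2 rose after ETS2 siRNA, DUSP4 and DUSP5, and 0 fell; the other 8 did not pass the test. A gene counted as changed at an adjusted p under 0.05 in limma's moderated test, with Benjamini-Hochberg adjustment over all 18417 genes, and by this rule 4.91% of all genes changed: 2.28% were higher after ETS2 siRNA and 2.63% lower. Both rises were near 1.2-fold. RNA of whole cultures was measured, so a different amount of a transcript per cell and a different share of cells that hold it cannot be told apart. The differences of the 10 genes ran from -0.11 to 0.26 with a median of 0.087, beside a median of 0.0033 over all genes. They were positive for 9 of the 10, beside 52.7% of all genes. At an unadjusted p under 0.05 there were 4 of the 10, DUSP4, DUSP5, SPRY2 and SPRED2, beside 18.5% of all genes. The list was chosen with earlier results of these data known, so its comparisons with all genes, here and below, are descriptions.

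ETS2 itself stood at 8.87, 8.70 and 8.78 on the ETS2 siRNA arrays, against 9.79, 9.91 and 9.79 on the control arrays. It fell to 48.4% of its control level (log2 difference -1.05, 95% interval -1.18 to -0.92, adjusted p = 0.000254 in limma), which checks the labels. The cells carried the marks of lung epithelium: of 10 measured epithelial and distal lung markers, 8 lay above the background floor in at least 1 group, EPCAM, CDH1, KRT8, KRT18, KRT19, NKX2-1, NAPSA and SFTPB. That floor, a log2 level of 6.67, is the 95th percentile of the means of 341 olfactory receptor genes. SFTPC and SCGB1A1 lay below it. Of these 10 markers, 4 had an unadjusted p under 0.05, beside 18.5% of all genes. By the adjusted threshold 0 rose and 1 fell, the surfactant gene SFTPB, by 0.36 on the log2 scale (SE 0.0491, adjusted p = 0.00770 in limma). The log2 levels of the 10 summed to between 110.7 and 111.01 on the ETS2 siRNA arrays. On the control arrays they summed to between 111.07 and 111.4, so the sums did not overlap. These sums include SFTPB, and the 10 markers did not move together. Their median difference was -0.0017, and 5 of the 10 were positive, among them SFTPC and SCGB1A1, which lay below the floor. The distal lung markers above the floor were all lower, SFTPB, NAPSA at -0.13 (adjusted p = 0.115 in limma) and NKX2-1 at -0.11 (0.194). KRT19 at 0.11 (0.182) was the single higher marker with an unadjusted p under 0.05. NAPSA, NKX2-1 and KRT19 were picked out after their values were seen. The part of these differences in the results below was not tested. Of 11 leukocyte, fibroblast and endothelial markers, 6 lay below the floor in both groups, PTPRC, CD3E, DCN, PECAM1, CDH5 and VWF. The other 5, COL1A1, COL1A2, PDGFRB, CD14 and CD79A, lay above it in at least 1 group, the collagen gene COL1A1 at 9.05 ± 0.05 after ETS2 siRNA and 8.95 ± 0.03 in control cells (SD, n = 3 each). CD79A had a difference of 0.11 (adjusted p = 0.316 in limma) and COL1A1 of 0.097 (0.270), and 0 of the 11 passed the test (0 also at an unadjusted p under 0.05). Their log2 levels summed to between 69.1 and 70.3 on the ETS2 siRNA arrays and between 69.1 and 69.6 on the control arrays. All 10 ERK feedback genes lay above the floor. DUSP4 was the dimmest of them, with means of 7.48 after ETS2 siRNA and 7.22 in control cells. The array medians over all probes lay between 7.32 and 7.36.

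**Figure D1:**
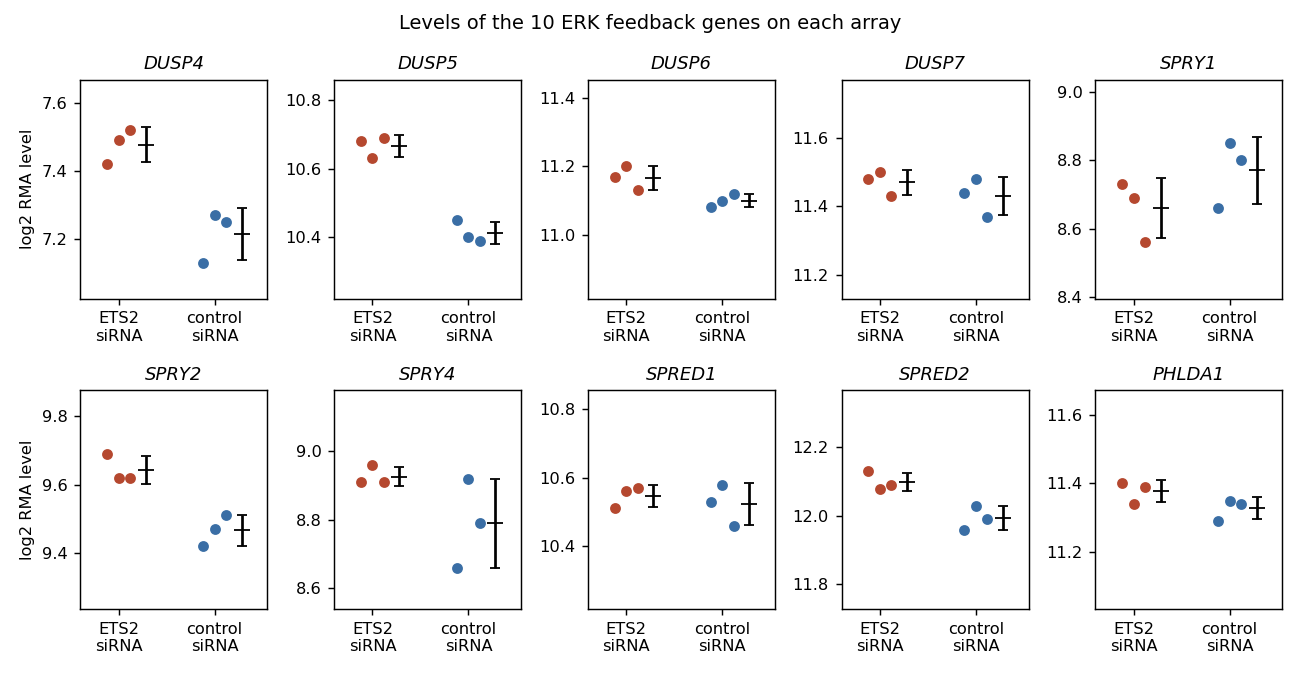
Log2 RMA level of each of the 10 genes on each array, with 3 ETS2 siRNA arrays (red) left of 3 control arrays (blue); bars are means ± SD, and every panel spans the same height around its own centre. The groups lie clearly apart for DUSP4 and DUSP5, narrowly apart for SPRY2, SPRED2 and DUSP6, and overlap for the other 5 genes.

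ETS factors bind DNA at a short core, GGAA. The upstream sequence is shown for the 3 genes whose groups did not overlap and whose RefSeq promoter on GRCh38.p14 was searched. The search covered 8 of the 10 genes. DUSP5 had no promoter entry, and DUSP4 was left out of the search. Each run is the 250 bases before the annotated start, read 5′ to 3′ on the strand of the gene, and capitals mark GGAA or its reverse complement TTCC.
DUSP6 (chr12:89352502-89352751, minus strand): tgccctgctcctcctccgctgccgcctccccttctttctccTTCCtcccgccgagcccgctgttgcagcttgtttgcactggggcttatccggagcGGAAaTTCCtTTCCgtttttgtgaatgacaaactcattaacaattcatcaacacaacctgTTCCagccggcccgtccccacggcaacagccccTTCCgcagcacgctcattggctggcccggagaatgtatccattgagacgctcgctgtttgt
SPRY2 (chr13:80341127-80341376, minus strand, the outermost of 3 starts): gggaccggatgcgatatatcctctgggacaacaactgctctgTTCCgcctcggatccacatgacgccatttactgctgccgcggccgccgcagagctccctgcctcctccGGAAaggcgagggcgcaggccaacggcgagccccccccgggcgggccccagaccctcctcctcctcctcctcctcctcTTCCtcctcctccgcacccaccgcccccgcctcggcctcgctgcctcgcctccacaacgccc
SPRED2 (chr2:65432600-65432849, minus strand, the outermost of 2 starts): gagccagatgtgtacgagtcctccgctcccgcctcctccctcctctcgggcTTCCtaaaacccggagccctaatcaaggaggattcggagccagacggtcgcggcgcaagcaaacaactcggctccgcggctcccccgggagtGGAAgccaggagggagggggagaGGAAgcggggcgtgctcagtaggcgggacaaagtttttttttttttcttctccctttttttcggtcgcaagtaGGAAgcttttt

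The core occurred 6 times in the DUSP6 window, 3 times in that of SPRY2 and 4 times in that of SPRED2, counting both strands. It is a short motif, and 92.7% of all 35116 promoter windows of 250 bases held it at least once, with a median of 3. Among the 12 windows of the 8 genes searched, the DUSP7 window had 0 cores. The longer ETS form CCGGAA, which contains the core, was found in 14.5% of all windows. It occurred once each in the outermost SPRY2 window, in the inner of the 2 SPRY1 windows and in the PHLDA1 window. The AP-1 motif TGANTCA (6.57% of all windows) and the cyclic AMP response element TGACGTCA (1.65%) occurred in 0 of the 12. These are matches of letters, and binding was not measured.

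DUSP4 and DUSP5 encode the nuclear, inducible phosphatases of the list. DUSP4 acts on ERK and on the stress kinases JNK and p38. It read 7.42, 7.49 and 7.52 on the ETS2 siRNA arrays and 7.13, 7.27 and 7.25 on the control arrays. The lowest ETS2 siRNA array lay 0.15 above the highest control array. The mean was 7.48 ± 0.05 after ETS2 siRNA and 7.22 ± 0.08 in control cells (SD, n = 3 each), a log2 difference of 0.26 (95% interval 0.14 to 0.38), or 1.20-fold (1.10 to 1.30), with an adjusted p of 0.0278 in limma. DUSP5, which is selective for ERK and anchors it in the nucleus, read 10.68, 10.63 and 10.69 after ETS2 siRNA and 10.45, 10.40 and 10.39 in control cells. Its groups lay 0.18 apart, the widest separation of the 10 genes. The mean was 10.67 ± 0.03 after ETS2 siRNA and 10.41 ± 0.03 in control cells (SD, n = 3 each), a log2 difference of 0.25 (95% interval 0.16 to 0.34), or 1.19-fold (1.12 to 1.27), with an adjusted p of 0.0121 in limma.

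Both rises were of middling size for a changed gene, since the median absolute log2 change among the 904 changed genes was also 0.26. Both calls depended on the full set of arrays, although the differences themselves moved little. With 1 array left out, DUSP4 kept a difference between 0.22 and 0.29 and was called only without control replicate 2. Its adjusted p in limma was 0.0547, 0.107 and 0.123 without ETS2 siRNA replicates 1, 2 and 3, and 0.0735 and 0.0699 without control replicates 1 and 3. DUSP5 kept a difference between 0.24 and 0.27. It lost its call without ETS2 siRNA replicate 1 (adjusted p = 0.0513 in limma), ETS2 siRNA replicate 3 (0.0672) or control replicate 3 (0.0543). Over the whole table, leaving out 1 array lowered the number of changed genes to between 213 and 735.

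DUSP6 and DUSP7 encode the cytoplasmic phosphatases that act on ERK. DUSP6, a transcript often used as a direct gauge of ERK activity, read 11.17, 11.20 and 11.13 after ETS2 siRNA and 11.08, 11.10 and 11.12 in control cells. The groups were separated by 0.01, the last decimal of the deposited values. The difference was 0.067 (95% interval -0.022 to 0.155, adjusted p = 0.431 in limma), so a rise above 1.11-fold lay outside the interval. DUSP7 read 11.48, 11.50 and 11.43 after ETS2 siRNA and 11.44, 11.48 and 11.37 in control cells. These values overlapped, with a difference of 0.04 (95% interval -0.061 to 0.14, adjusted p = 0.717) that ran from 0.01 without control replicate 3 to 0.065 without control replicate 2. The interval of DUSP5, which began at 0.163, did not meet those of DUSP6 and DUSP7, but the difference between the phosphatases was not tested.

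**Figure D2:**
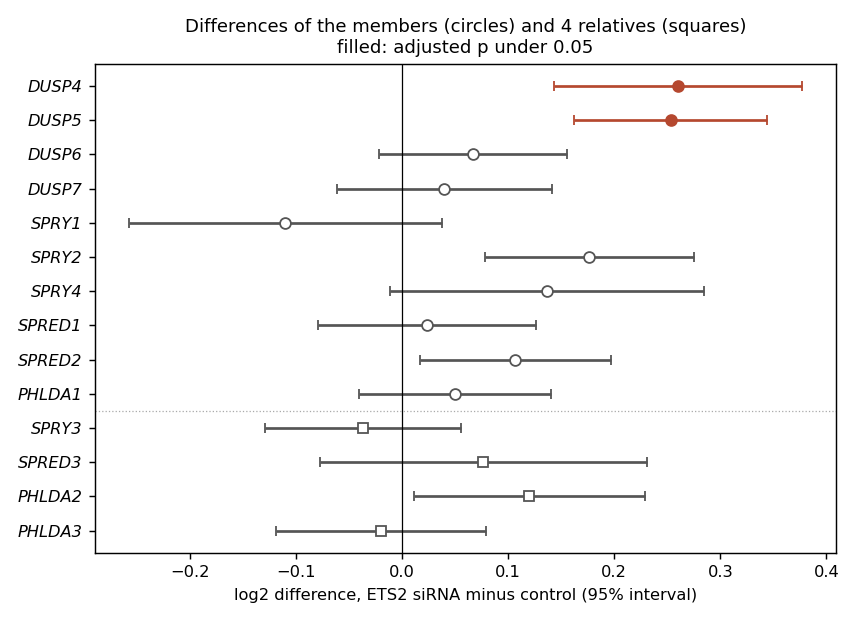
Log2 difference, ETS2 siRNA minus control, with its 95% interval for the 10 genes (circles) and for 4 relatives outside the list (squares); filled symbols passed an adjusted p of 0.05. DUSP4 and DUSP5 lie near 0.25, SPRY2 at 0.18 follows, and SPRY1 is the single gene of the 10 with a negative difference.

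The Sprouty proteins bind adaptors and ubiquitin ligases at activated receptors and hold back the step to RAS and RAF. SPRY2 read 9.69, 9.62 and 9.62 after ETS2 siRNA and 9.42, 9.47 and 9.51 in control cells. Every ETS2 siRNA array lay above every control array, by at least 0.11. The mean was 9.64 ± 0.04 after ETS2 siRNA and 9.47 ± 0.05 in control cells (SD, n = 3 each). The difference of 0.18 (95% interval 0.079 to 0.27), 1.13-fold, missed the threshold with an adjusted p of 0.0581 in limma. It passed when arrays were centred on their medians (0.0394), when quantile normalization was applied again (0.0478), when only genes above the floor were tested (0.0285) and with an intensity trend in the variance (0.0120). With an array left out, its adjusted p in limma lay between 0.0951 and 0.162.

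SPRY4 read 8.91, 8.96 and 8.91 after ETS2 siRNA and 8.66, 8.92 and 8.79 in control cells. The ETS2 siRNA arrays agreed within 0.05, whereas the control arrays had an SD of 0.13, and the highest control array exceeded the lower ETS2 siRNA arrays. The difference of 0.14 had an adjusted p of 0.312 in limma. It was 0.072 without control replicate 1 and 0.20 without control replicate 2, so its size rested on the control arrays. SPRY1 read 8.73, 8.69 and 8.56 after ETS2 siRNA and 8.66, 8.85 and 8.80 in control cells. It was the one gene of the 10 with a negative difference, -0.11 (95% interval -0.26 to 0.037, adjusted p = 0.435), and its groups overlapped through control replicate 1. The difference was -0.165 without that array (adjusted p = 0.231 in limma), but shrank to -0.06 (0.762) when ETS2 siRNA replicate 3 was left out and to -0.07 (0.644) when control replicate 2 was.

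The SPRED proteins bring the RAS-inactivating protein neurofibromin, encoded by NF1, to the membrane. SPRED2 read 12.13, 12.08 and 12.09 after ETS2 siRNA and 11.96, 12.03 and 11.99 in control cells. The groups lay apart by 0.05. The difference of 0.11 (95% interval 0.016 to 0.20), 1.08-fold, had an adjusted p of 0.186 in limma, and 0.0166 with an intensity trend. SPRED1 read 10.51, 10.56 and 10.57 after ETS2 siRNA and 10.53, 10.58 and 10.46 in control cells. Its values overlapped throughout, with a difference of 0.023 (95% interval -0.079 to 0.13, adjusted p = 0.858). PHLDA1, a pleckstrin-homology-like protein whose transcript follows ERK activity, read 11.40, 11.34 and 11.39 after ETS2 siRNA and 11.29, 11.35 and 11.34 in control cells. The groups overlapped by 0.01, and the difference of 0.05 had an adjusted p of 0.586.

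In all, the groups did not overlap for 5 of the 10 genes, DUSP4, DUSP5, DUSP6, SPRY2 and SPRED2, each with the ETS2 siRNA arrays higher. Over all genes 23.1% did not overlap, and 11.6% did not overlap with the ETS2 siRNA arrays higher. Control replicate 1 was the lowest control array for 7 of the 10 genes, beside 35.3% of all genes. On that array the 10 genes lay a median of 0.035 below their control means, where all genes lay 0.0067 below. Its part in the 10 differences is given by the values without it, which were 0.22 for DUSP4, 0.27 for DUSP5, 0.057 for DUSP6, 0.045 for DUSP7, -0.165 for SPRY1, 0.15 for SPRY2, 0.072 for SPRY4, 0.027 for SPRED1, 0.090 for SPRED2 and 0.032 for PHLDA1.

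The relatives outside the list were measured alongside. SPRY3 lay below the floor in both groups, at 5.30 ± 0.03 after ETS2 siRNA and 5.34 ± 0.04 in control cells (SD, n = 3 each). SPRED3 had a difference of 0.077 (adjusted p = 0.629 in limma), PHLDA3 of -0.02 (0.877) and PHLDA2, an imprinted relative of PHLDA1, of 0.12 (0.220). PHLDA2 read 10.03, 9.91 and 9.96 after ETS2 siRNA and 9.86, 9.89 and 9.79 in control cells, and its groups lay apart by 0.02. Of these 4 relatives 0 changed by limma, with 1, PHLDA2, at an unadjusted p under 0.05, beside 18.5% of all genes.

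The other MAP kinase phosphatases included changes in the opposite direction. Of 6 measured, 0 rose and 2 fell, with a median difference of 0.035. Over all genes 2.28% rose and 2.63% fell, shares that also stand beside the counts of the lists below. DUSP1, an immediate early phosphatase of p38, JNK and ERK, read 9.79, 9.77 and 9.79 after ETS2 siRNA and 10.05, 10.12 and 10.03 in control cells. It fell to 82.2% of its control level (log2 difference -0.28, SE 0.0401, adjusted p = 0.00864 in limma), a change about as large as the rises of DUSP4 and DUSP5. DUSP16, which acts mainly on JNK, read 9.05, 8.94 and 9.02 after ETS2 siRNA and 9.21, 9.25 and 9.23 in control cells, and fell to 85.5% (log2 difference -0.23, SE 0.0426, adjusted p = 0.0234 in limma). Without ETS2 siRNA replicate 3 DUSP1 had an adjusted p of 0.0510 in limma and was called without any other single array. DUSP16 was not called with any single array left out (adjusted p between 0.0509 and 0.0963). Of 12 atypical dual specificity phosphatases, 1 rose and 0 fell, with a median of 0.033. The one that rose was DUSP3, a small phosphatase of ERK and JNK, with 10.12, 10.06 and 10.15 after ETS2 siRNA and 9.88, 9.94 and 9.87 in control cells (log2 difference 0.21, SE 0.0424, adjusted p = 0.0295 in limma). It was called with 1 array left out only without control replicate 2, and otherwise had an adjusted p between 0.0662 and 0.128.

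Of 20 further brakes on receptor and RAS signalling, 0 rose and 2 fell, with a median of -0.0067. An unadjusted p under 0.05 was found for 5 of the 20, beside 18.5% of all genes in either direction. All 5 were lower after ETS2 siRNA, while 8 of the 20 differences were positive. NF1, the partner of the SPRED proteins, read 11.44, 11.48 and 11.43 after ETS2 siRNA and 11.70, 11.78 and 11.76 in control cells, and fell to 81.4% of its control level (log2 difference -0.30, SE 0.0402, adjusted p = 0.00740 in limma). LRIG1, which promotes degradation of EGFR family receptors, read 8.33 on all 3 ETS2 siRNA arrays and 8.58, 8.58 and 8.66 on the control arrays, and fell to 82.5% (log2 difference -0.28, SE 0.0396, adjusted p = 0.00920 in limma). Both lost their call without ETS2 siRNA replicate 3, at 0.0502 for NF1 and 0.0538 for LRIG1, and kept it without any other array.

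**Figure D3:**
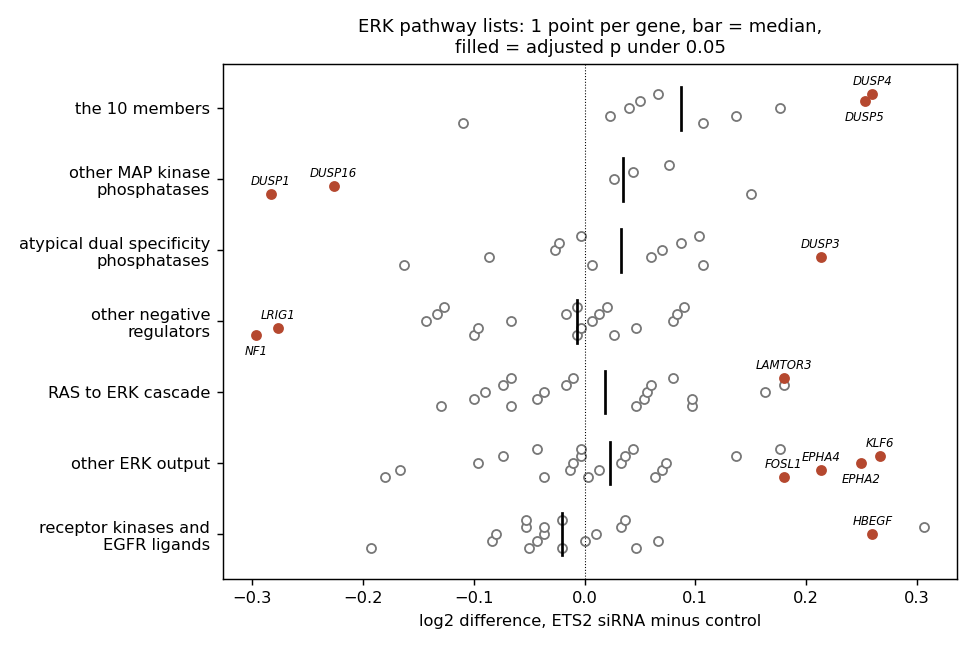
Log2 difference, ETS2 siRNA minus control, of each gene in the 10-gene list and in 6 lists of the surrounding pathway; each point is a gene, vertical bars are list medians, and filled points passed an adjusted p of 0.05 and are named. DUSP4 and DUSP5 lie on the right, as do 4 other ERK output genes, DUSP3, LAMTOR3 and HBEGF, while DUSP1, DUSP16, NF1 and LRIG1 lie on the left.

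Among other genes of ERK output, 24 measured, 4 rose and 0 fell, with a median of 0.023. They were KLF6 (0.27), a zinc finger factor, the Eph receptors EPHA2 (0.25) and EPHA4 (0.21), and FOSL1 (0.18), an AP-1 subunit stabilised by ERK. Their adjusted p in limma ran from 0.0192 for KLF6 to 0.0426 for EPHA4. FOSL1 and EPHA4 were not called with any single array left out, KLF6 was called only without control replicate 2, and EPHA2 without control replicate 2 or 3. At an unadjusted p under 0.05 there were 9 of the 24, beside 18.5% of all genes. The 5 of them that missed the adjusted threshold, named after their values were seen, went both ways. They were KLF10 at 0.18, IER3 at 0.14, ETV4 at -0.097, ELK3 at -0.17 and EGR1 at -0.18, with adjusted p of 0.151, 0.109, 0.258, 0.0714 and 0.0694 in limma.

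In the cascade itself, from GRB2 to the RSK kinases, 1 of 20 measured genes rose and 0 fell, with a median of 0.018. An unadjusted p under 0.05 was found for 6 of the 20, beside 18.5% of all genes. LAMTOR3, a scaffold that holds MEK and ERK on endosomes, read 9.55, 9.56 and 9.58 after ETS2 siRNA and 9.40, 9.37 and 9.38 in control cells (log2 difference 0.18, SE 0.0360, adjusted p = 0.0301 in limma). It was not called with any single array left out (adjusted p between 0.0579 and 0.128). Of 10 other MAP kinases, 0 changed by limma and 3 had an unadjusted p under 0.05, beside 18.5% of all genes. MAPK9 at 0.15 and MAPK8 at -0.15, which encode JNK kinases, had the smallest p (adjusted 0.0720 and 0.0982 in limma). MAPK9 passed when only genes above the floor were tested (0.0346), with an intensity trend (0.00402) and with array weights (0.0400), and MAPK8 with an intensity trend (0.0349). Of 19 receptor tyrosine kinases and EGFR ligands, 1 rose and 0 fell, with a median of -0.02. An unadjusted p under 0.05 was found for 3 of the 19, beside 18.5% of all genes. HBEGF, an EGFR ligand that ERK induces, read 11.11, 11.02 and 11.06 after ETS2 siRNA and 10.79, 10.74 and 10.88 in control cells (log2 difference 0.26, SE 0.0488, adjusted p = 0.0232 in limma). With 1 array left out HBEGF was called only without control replicate 3, and otherwise had an adjusted p between 0.0524 and 0.0968.

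Genes with the array profile most like that of the changed members were looked for among 3006 genes above the floor and with an SD of at least 0.1 over the 6 arrays. Likeness was Pearson's r over 6 arrays, which share the step between the groups, so it is a description. For DUSP4 they were ZNF106 (r = 0.998), SOWAHC (0.997) and SETD7 (0.997). ZNF106 read 10.21, 10.28 and 10.32 after ETS2 siRNA and 9.95, 10.07 and 10.07 in control cells, with its lowest control value on the same array as DUSP4. For DUSP5 they were GID4 (0.995), C16orf74 (0.993) and MOB3C (0.992). C16orf74 read 9.26, 9.20 and 9.27 after ETS2 siRNA and 8.94, 8.79 and 8.77 in control cells. All 6 were themselves changed and higher after ETS2 siRNA with all arrays in the fit. C16orf74 and MOB3C were also called in all 15 alternatives. ZNF106, SETD7 and GID4 were not called with any single array left out (adjusted p in limma from 0.0508 to 0.152 over the 3 genes), and SOWAHC was called only without control replicate 2 (otherwise 0.0625 to 0.126).

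**Figure D4:**
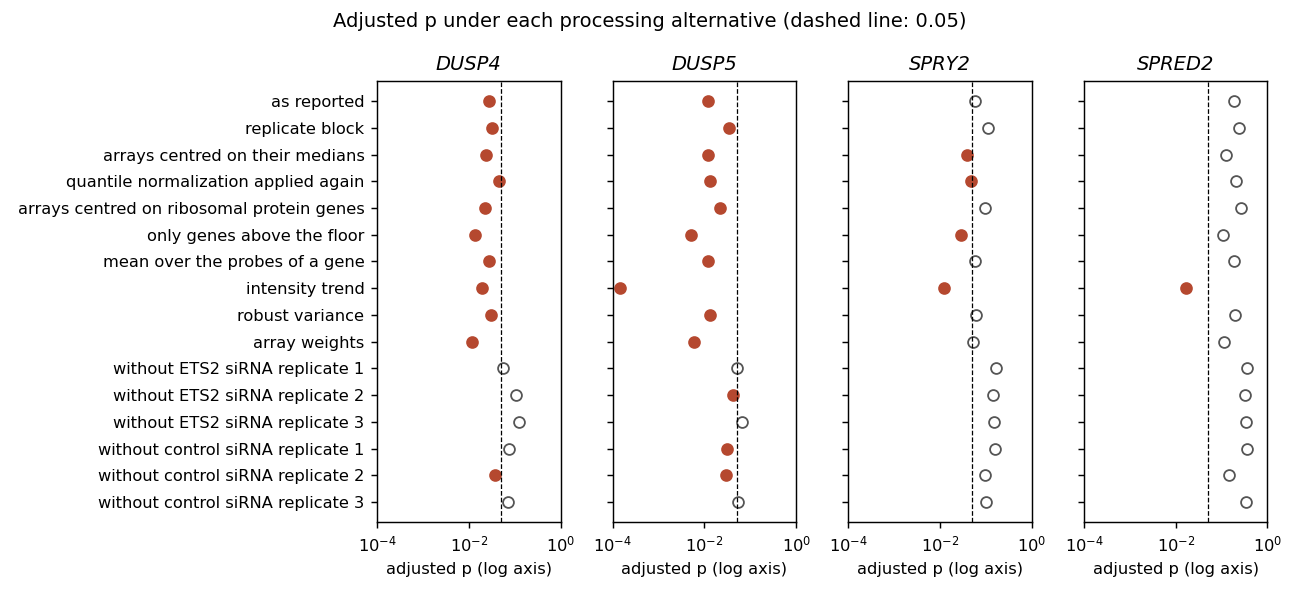
Adjusted p of DUSP4, DUSP5, SPRY2 and SPRED2 under the reported settings and 15 alternatives, on a log axis with the threshold of 0.05 dashed; filled points passed it. DUSP4 passed in 10 of the 15 and DUSP5 in 12, the failures all with an array left out, whereas SPRY2 passed in 4 and SPRED2 in 1.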

How the data were processed

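Per the labels, total RNA of 6 H441 samples was labelled with biotin and hybridised to an Affymetrix human gene array, 1 array a sample. The authors deposited log2 levels with 2 decimals. Per the submitters' processing notes they come from RMA (background correction, normalisation between arrays, probe summary), whose version, settings and annotation are not given in any source used here. RMA removes a shift shared by all genes and compresses folds of dim genes. Depth has no counterpart on arrays, and the number of arrays limits the precision.

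Of 33297 probes, 19460 had 1 gene symbol, and the brightest per gene left 18417 genes; none was filtered. Groups were compared with limma 3.58.1 in R 4.3.3 (lmFit, eBayes without trend, two-sided, Benjamini-Hochberg over all genes, threshold 0.05); intervals are 95% moderated intervals. An exact permutation of 3 against 3 arrays cannot give a p under 0.1. The procedure was also run on simulated data with independent noise for each gene and array, which cannot speak to effects shared by the genes of an array. Of 202 genes in 12 lists, 178 were measured. Named are all 10 members, ETS2, 4 relatives, per list up to 4 changed genes by size of change (where there were none, 2 genes by smallest p), and the 3 closest profiles of each changed member. Markers are named by their side of the floor, and 5 ERK output genes outside this rule are named as such. Of 32 ribosomal protein genes, used for rescaling, 0 changed in limma, 0 also at an unadjusted p under 0.05; they are not named. The members and lists were chosen with earlier results of these data known. The alternatives were a replicate block, 3 rescalings, a filter on dim genes, the mean over probes, 2 variance models, array weights and leaving out each array. Promoter windows were searched with Python 3.11.15.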

Additional observations from a re-analysis of the deposited data

How the results depend on the processing

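Against 2 of the 10 genes changed as reported, 4 were called with an intensity trend, and between 0 and 2 with 1 array left out. Over all genes, 904 changed as reported, 1397 when only genes above the floor were tested, 1963 with an intensity trend, 1480 with array weights, and between 213 and 735 with 1 array left out. DUSP4 and DUSP5 stayed called in all 9 alternatives that keep every array, the 3 rescalings included. Direction was followed for the members, ETS2, the relatives, the closest profiles, SFTPB and the pathway genes named by rule. Among these it turned only in genes that were not called. They were SPRED1 at -0.0083 without control replicate 3, SPRED3 at -0.0017 without control replicate 2 and PHLDA3 at 0.01 without ETS2 siRNA replicate 2. With 1 array left out these 3 ran from -0.0083 to 0.052, from -0.0017 to 0.12 and from -0.045 to 0.01. The causes of the changes under the alternatives were not tested. With the replicate number as a block, 604 genes changed, and 2 of the 10, again DUSP4 (adjusted p = 0.0325 in limma) and DUSP5 (0.0349). DUSP16 (0.0620), DUSP3 (0.0731), EPHA4 (0.0654), FOSL1 (0.0720), LAMTOR3 (0.0693), GID4 (0.0655) and SETD7 (0.0533) were then not called. Samples of the same number had deviations from their group means correlated at 0.177, 0.181 and 0.0352 over all genes. For samples of different numbers the correlations ran from -0.198 to 0.0659, below the values of replicates 1 and 2. Whether samples of the same number share an effect was not tested. The reported fit had no block because the labels state independent transfections and give no pairing. Centring on ribosomal protein genes ended the calls of EPHA4 (0.0543), FOSL1 (0.05005) and GID4 (0.0638).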
